A study of Saccharomyces cerevisiae with 8 samples.

Results

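A group of 10 genes of thiamine synthesis, thiamine uptake and their regulation were followed across 4 groups of budding yeast (Saccharomyces cerevisiae) cultures measured on 1-colour Affymetrix arrays. The genes were picked by symbol: THI2, THI3, THI4, THI5, THI7, THI11, THI12, THI13, THI20 and THI21. Of the 10 genes, 7 had a named probe set among the 5449 genes tested, and each of these had 1. THI5, THI11 and THI12 had none under their own symbol. The probe set annotated to THI13 carries the suffix that the array's design gives to probes shared between transcripts, and THI13, THI5, THI11 and THI12 are near-identical genes. Its value may therefore hold signal of any of the 4, and it is called the THI5 family probe set here. The gene group was proposed with its log2 levels across the 4 groups in view. Every level, difference and count of called members below is therefore a description, with no test of the members. The lists of linked genes further down were also written with earlier results of these data known. Their limma adjusted p values are likewise a description.

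The groups were a wild type (wt) and deletions of dot1, swi4 and ard1, each grown in YPD, a rich medium, at 30 C and harvested in mid-log phase at an optical density (OD600) of 0.7. Every group has 2 samples labelled as biological replicates, each hybridised to an array of its own. The labels give no strain background and do not say whether a mutant is 1 clone. DOT1 encodes a histone H3 methyltransferase, SWI4 the DNA-binding subunit of the G1 transcription factor SBF, and ARD1 the catalytic subunit of the N-terminal acetyltransferase NatA. The series title concerns Dot1 and silencing, so thiamine genes were not the stated subject of the study.

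Yeast can take thiamine (vitamin B1) from the medium or make it by joining a pyrimidine and a thiazole that are built separately. Its active form, thiamine diphosphate, is the cofactor of pyruvate decarboxylase, transketolase and several dehydrogenases. When thiamine is plentiful, as in rich medium, the synthesis and uptake genes are known to be repressed, and when it runs low the regulators Thi2, Thi3 and Pdc2 turn them on. All cultures here were grown in rich medium, and no thiamine-free condition was part of the design.

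Each deleted gene was lower in its own mutant than on every other array. DOT1 stood at 4.49 and 4.29 in dot1 and at 7.49 to 8.09 elsewhere, ARD1 at 5.57 and 5.22 in ard1 and at 10.41 to 10.83 elsewhere, and SWI4 at 4.21 and 4.22 in swi4 and at 4.94 to 5.48 elsewhere, all as log2 intensity. SWI4 was dim on every array, at 31 to 45 in linear intensity elsewhere and 19 in swi4, so its check is weaker than the others. The lowest intensity of any probe set was 15.2. Array medians ran from 623 to 713 in linear intensity, the highest being wt replicate 2, which lay above wt replicate 1 by a median of 0.14 on the log2 scale. That array stood apart from the others in its median, and called differences lost without it are named. Without it, THI4 in swi4 against wt turned from 0.05 to −0.10, and ILV2 in ard1 against wt moved from 0.47 to 0.65. The differences of replicate 2 from replicate 1 spread nearly as widely over genes in dot1 as in wt (SD 0.30 and 0.32). They spread less in swi4 and ard1 (SD 0.14 and 0.17). Those of wt and dot1 correlated over genes by 0.75. Over all 5449 genes dot1 differed from wt by a median of −0.07, swi4 by −0.10 and ard1 by −0.07 (log2). These medians were 0.01, 0.00 and 0.01 after each array was centred on its median. Extracts were of whole cultures, so fewer cells using a gene and less RNA per cell cannot be told apart.

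The 7 measured genes did not share 1 pattern across the groups. Against wt, limma called 0 of 7 in dot1, where 2.46% of all genes were called. At an unadjusted p under 0.05 it was 1 of 7 in dot1, beside 1226 of all 5449 genes. In swi4 it called 2 of 7, where 12.2% of all genes were called. The 2 were 1 higher and 1 lower, beside 5.16% and 7.01% of all genes. It called 3 of 7 in ard1, where 18.5% of all genes were called, and all 3 were lower, as were 12.2% of all genes. A call here is a Benjamini-Hochberg adjusted p under 0.05 over all genes. The median of the 7 genes differed from wt by −0.07 (dot1), 0.06 (swi4) and −0.42 (ard1), beside the medians of all genes given above. The 3 comparisons share the wt arrays.

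**Figure D1:**
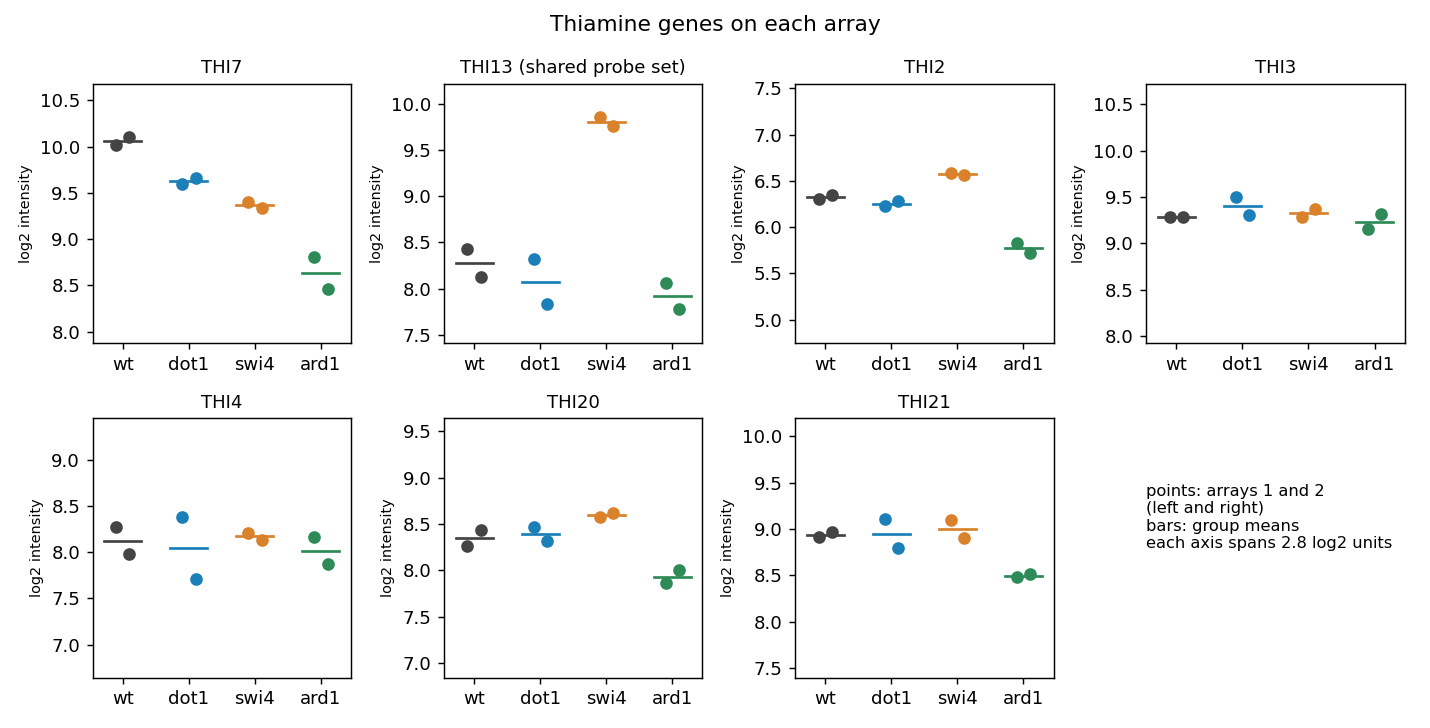
Log2 intensity of the 7 measured thiamine genes on each of the 8 arrays. Points are arrays 1 and 2 of a group, bars are group means, and each vertical axis spans the same number of log2 units. THI7 steps down from wt to dot1, swi4 and ard1, the THI5 family probe set stands high in swi4, and THI2, THI20 and THI21 are lowest in ard1.

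THI7 encodes the high-affinity thiamine transporter of the plasma membrane. Its log2 intensity was 10.02 and 10.10 on the wt arrays, 9.60 and 9.66 on those of dot1, 9.40 and 9.34 on those of swi4, and 8.81 and 8.46 on those of ard1. Every mutant array lay below both wt arrays, and the 4 groups followed each other from wt to dot1 to swi4 to ard1 without overlap. Relative to wt, dot1 differed by −0.43 ± 0.13, swi4 by −0.69 ± 0.13 and ard1 by −1.42 ± 0.13 (log2 difference ± SE from limma, n = 2 arrays per group, here and below). The last is 2.68-fold lower. THI7 was called lower in swi4 and ard1 and was not called in dot1. In swi4 the call was lost when leaving out swi4 replicate 1, swi4 replicate 2 or wt replicate 2, whereas in ard1 it held with each of the 4 arrays left out in turn. Set against each other, ard1 lay below dot1 by 0.99 ± 0.13 and below swi4 by 0.74 ± 0.13, both called, while swi4 and dot1 differed by −0.26 ± 0.13, which was not called. The call of ard1 against swi4 was lost without ard1 replicate 2, swi4 replicate 1 or swi4 replicate 2.

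The THI5 family encodes the enzymes that build the pyrimidine part of thiamine from histidine and pyridoxal phosphate, the active form of vitamin B6. Its shared probe set read 8.43 and 8.13 on the wt arrays, 8.32 and 7.83 on those of dot1, 9.85 and 9.76 on those of swi4, and 8.06 and 7.78 on those of ard1. Both swi4 arrays stood above all other arrays, and the ranges of wt and dot1 and of dot1 and ard1 overlapped, while both ard1 arrays lay below both wt arrays. The probe set read lower in replicate 2 than in replicate 1 in all 4 groups, as did 14.6% of all genes. These gaps were −0.30, −0.49, −0.09 and −0.29 in wt, dot1, swi4 and ard1. The difference from wt was 1.52 ± 0.19 in swi4, which is 2.87-fold higher, against −0.21 ± 0.19 in dot1 and −0.36 ± 0.19 in ard1. The swi4 difference was called, and the call was lost when either swi4 replicate 1 or swi4 replicate 2 was left out, where the lone remaining array was taken to vary like the other groups. The swi4 level exceeded that of dot1 by 1.73 ± 0.19. The level of ard1 was lower than that of swi4 by 1.88 ± 0.19, and this call held with each of the 4 arrays left out in turn. The call of swi4 against dot1 was lost without swi4 replicate 1, swi4 replicate 2 or dot1 replicate 2, and with only the 2 groups in the fit. Which of the 4 family members carried the higher signal in swi4 cannot be read from a shared probe set.

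THI4 encodes the thiazole synthase, which builds the other part of the molecule and gives up a sulfur atom of its own protein in doing so. It read 8.27 and 7.98 on the wt arrays, 8.38 and 7.71 on those of dot1, 8.21 and 8.13 on those of swi4, and 8.16 and 7.87 on those of ard1. The 4 groups overlapped throughout, and the widest gap between replicates, 0.67 in dot1, exceeded the whole range of the group means, 0.16. THI4 read lower in replicate 2 than in replicate 1 in all 4 groups, as did 14.6% of all genes. The gaps for THI4 were −0.29, −0.67, −0.08 and −0.30 in wt, dot1, swi4 and ard1. By replicate number, THI4 in ard1 lay below wt, at 8.16 against 8.27 and 7.87 against 7.98. Its differences from wt were −0.07, 0.05 and −0.11 in dot1, swi4 and ard1 (SE 0.23), none of them called. In swi4, where the probe set for the pyrimidine enzymes was 2.87-fold higher, the gene for the thiazole enzyme thus lay within the range of its wt arrays.

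THI20 and THI21 encode kinases that phosphorylate the pyrimidine precursor, and Thi20 can also break thiamine down. THI20 read 8.26 and 8.43 on the wt arrays, 8.47 and 8.32 on those of dot1, 8.58 and 8.62 on those of swi4, and 7.86 and 8.0 on those of ard1. THI21 read 8.91 and 8.97 on the wt arrays, 9.11 and 8.79 on those of dot1, 9.10 and 8.90 on those of swi4, and 8.48 and 8.51 on those of ard1. For both genes the ard1 arrays lay below all others. Against wt, THI20 differed by −0.42 ± 0.11 and THI21 by −0.44 ± 0.13 in ard1, of which only the first was called. That call was lost after median centring, with only the 2 groups in the fit, with a trended and robust prior, and when leaving out ard1 replicate 1, ard1 replicate 2 or wt replicate 2. In swi4 both THI20 arrays lay above wt, by 0.25 ± 0.11, without a call. Against swi4, ard1 was lower by 0.67 ± 0.11 for THI20 and by 0.50 ± 0.13 for THI21, both called. Each of these 2 calls was lost when any 1 of the 4 arrays compared was left out, and that of THI21 also with a trended and robust prior. Against dot1, ard1 was lower by 0.47 ± 0.11 for THI20, called with all arrays in the fit and lost without any 1 of the 4, with only the 2 groups in the fit and with a trended and robust prior. For THI21 it was lower by 0.46 ± 0.13, not called, and by 0.62, called, without dot1 replicate 2.

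THI2 encodes a zinc-finger activator of the thiamine genes, and THI3 a decarboxylase-like protein that senses thiamine diphosphate for the same regulatory complex. THI2 read 6.30 and 6.35 on the wt arrays, 6.23 and 6.28 on those of dot1, 6.58 and 6.56 on those of swi4, and 5.83 and 5.72 on those of ard1. The 4 groups did not overlap, with swi4 highest, then wt, dot1 and ard1, although dot1 lay only 0.07 ± 0.09 below wt and 0.02 above it after quantile normalization. THI2 was lower in ard1 than in wt by 0.55 ± 0.09, a called difference that was lost without ard1 replicate 2 and with only the 2 groups in the fit, and lower in ard1 than in swi4 by 0.80 ± 0.09. The latter was called and lost without swi4 replicate 1. Its difference of ard1 from dot1, −0.48 ± 0.09, was called with all arrays in the fit and lost without any 1 of the 4. In swi4 it was 0.25 ± 0.09 above wt without a call, and the quantile-normalized difference of 0.36 was called. THI3 read 9.28 and 9.29 on the wt arrays, 9.50 and 9.31 on those of dot1, 9.29 and 9.37 on those of swi4, and 9.15 and 9.32 on those of ard1, with a range of group means of 0.17. Its neighbouring groups overlapped and it was called in none of the 6 comparisons between groups.

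Between mutants, limma called 1 of the 7 genes in swi4 against dot1, where 1.01% of all genes were called, and it was higher, as were 0.367% of all genes. It called 3 in ard1 against dot1 (14.1% of all genes), all lower (8.44%), and 5 in ard1 against swi4 (15.3%), all lower (9.07%). Leaving out single arrays gave 0 to 1, 1 to 2 and 1 to 3 calls in these 3 comparisons. All 7 had lower means in ard1 than in dot1 and than in swi4, after median centring and quantile normalization too. Of all 5449 genes, 2613 had lower means in ard1 than in dot1 and 2497 than in swi4, without centring or quantile normalization. Against swi4 no sign changed when an array was left out. Against dot1, THI4 turned from −0.03 to 0.11 without ard1 replicate 2 and to 0.30 without dot1 replicate 1, and the THI5 family from −0.15 to 0.09 without dot1 replicate 1. Against wt all 7 also had lower means in ard1, as had 3197 of all 5449 genes. THI3, at −0.05, turned to 0.02 after centring, 0.03 after quantile normalization and 0.03 without ard1 replicate 1. THI4, at −0.11, turned to 0.04 without ard1 replicate 2 and without wt replicate 1. THI4 and the THI5 family read lower in replicate 2 than in replicate 1 in all 4 groups. Their turns without 1 array therefore also hold that gap between replicates. The ard1 arrays lay below both wt arrays without overlap for 5 of 7 genes, which 35.6% of all genes did. In swi4 against wt, 3 genes lay above without overlap and 1 below (22.5% and 37.1% of all genes). In dot1, 1 lay above and 2 below (15.8% and 26.8%). In swi4 THI7 was called lower and the THI5 family higher, whereas in ard1 they stood at −1.42 and −0.36, of which only the first was called.

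A further 11 genes of thiamine uptake, completion, transport and regulation were all measured. Limma called 0 of them in dot1, 1 higher in swi4 and 4 lower in ard1. Of all genes, 5.16% were called higher in swi4 and 12.2% lower in ard1. At an unadjusted p under 0.05, 0 of 11 differed in dot1, beside 1226 of all 5449 genes. NRT1, a nicotinamide riboside transporter gene of the same family as THI7, read 9.22 and 9.13 on the wt arrays, 9.09 and 9.08 on those of dot1, 9.08 and 8.95 on those of swi4, and 7.98 and 8.10 on those of ard1. It fell 2.20-fold in ard1 against wt (−1.13 ± 0.10, limma adjusted p = 0.00176), and ard1 was also lower than dot1 (−1.04 ± 0.10, limma adjusted p = 0.00298) and than swi4 (−0.98 ± 0.10, limma adjusted p = 0.00308). Its dot1 and swi4 differences from wt, −0.09 and −0.16, were not called.

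PHO3 encodes a periplasmic acid phosphatase that frees thiamine from its phosphates before uptake. It read 12.23 and 12.33 on the wt arrays, 11.82 and 12.11 on those of dot1, 12.87 and 13.07 on those of swi4, and 11.21 and 11.08 on those of ard1. The 4 groups were apart, in the same order as for THI2. PHO3 fell 2.19-fold in ard1 (−1.13 ± 0.13, limma adjusted p = 0.00400) and rose 1.62-fold in swi4 (0.69 ± 0.13, limma adjusted p = 0.0234). The fall was called with each array left out in turn, with adjusted p from 0.00138 to 0.0411 over the alternatives. The rise was lost without swi4 replicate 1, swi4 replicate 2 or wt replicate 2. Between the 2 mutants the difference was −1.83 ± 0.13 (ard1 minus swi4, limma adjusted p = 0.00130).

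THI22, a gene similar to THI20 and THI21, fell in ard1 by 0.74 ± 0.10 (limma adjusted p = 0.00507), with ard1 arrays at 8.61 and 8.49 against 9.29 and 9.30 in wt, and without ard1 replicate 2 its limma adjusted p was 0.0512, in a range of 0.00182 to 0.0512 over the alternatives. THI73, a putative permease gene, fell by 0.73 ± 0.18 (limma adjusted p = 0.0343). That call was lost after median centring, after quantile normalization and without ard1 replicate 1, ard1 replicate 2 or wt replicate 1. The enzymes that finish the cofactor were not called in any mutant. THI6, which joins pyrimidine and thiazole, differed from wt by 0.03, 0.05 and −0.25 in dot1, swi4 and ard1 (SE 0.13). THI80, which adds the diphosphate, differed by −0.02, −0.19 and 0.26 (SE 0.14), so its mean was highest in ard1. PDC2, the third regulator, differed by −0.08, −0.10 and 0.03 (SE 0.14). The remaining 4 genes of the list, THI72, THI74, TPC1 and PET18, lay between −0.54 and 0.31 relative to wt, without a call.

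**Figure D2:**
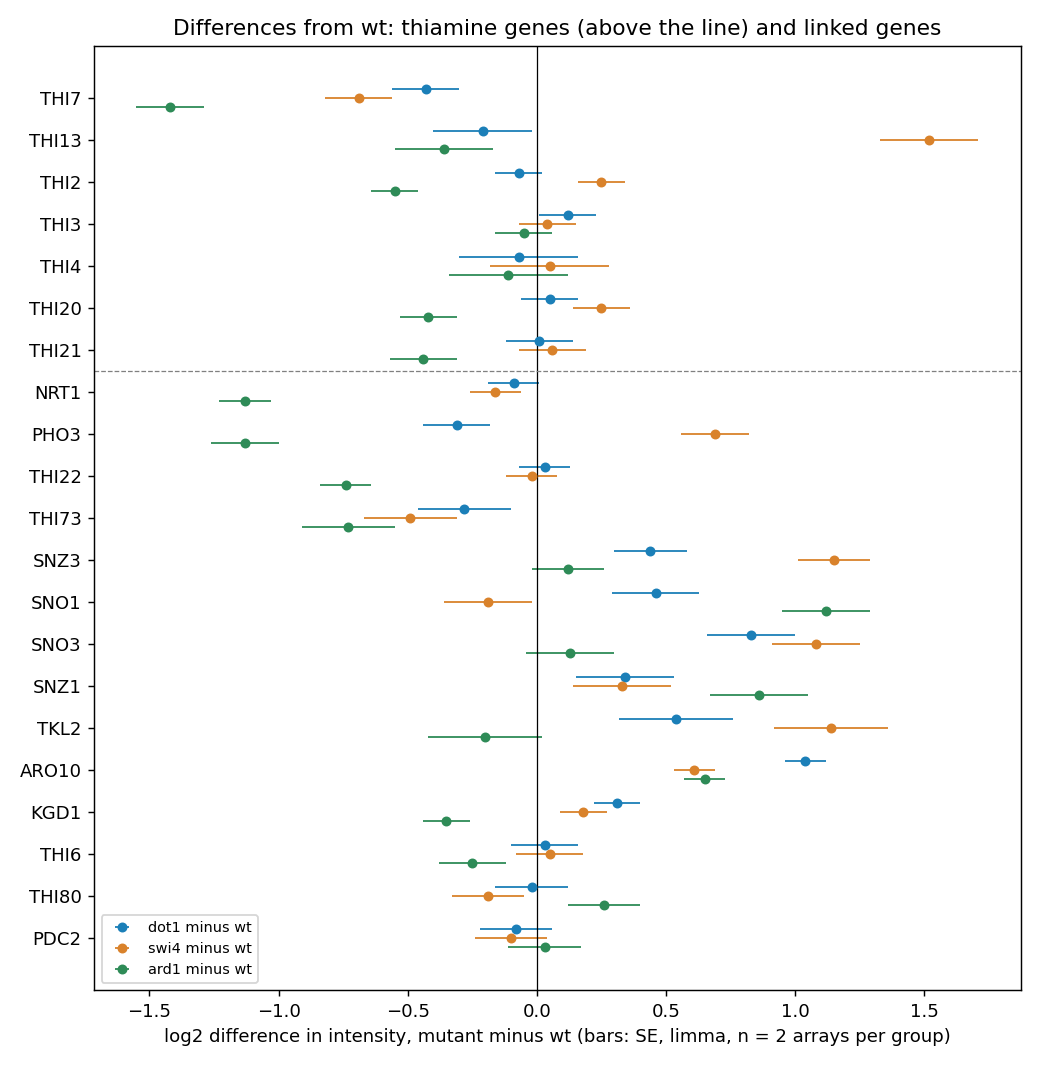
Log2 difference of each mutant from wt for the 7 measured thiamine genes, above the dashed line, and for the named linked genes below it. Points are limma estimates and bars their SE with 2 arrays per group. NRT1, PHO3, THI22 and THI73 lie left of 0 in ard1 together with THI7, and SNZ3 and SNO3 lie right of 0 in swi4 together with the THI5 family probe set, labelled THI13.

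Vitamin B6 genes were listed because the Thi5 enzymes consume pyridoxal phosphate, which the Snz and Sno proteins make as the 2 subunits of 1 synthase. In the gene table of the R64 assembly THI5 lies next to SNZ3 and SNO3, and THI12 next to SNZ2 and SNO2, whereas SNZ1 and SNO1 do not neighbour a THI5 family gene. SNZ2 and SNO2 had no named probe set, and those of SNZ3 and SNO3 have the suffix for shared probes, so their values may hold both copies. Of the 9 genes listed 7 were measured. Limma called 0 of them in dot1, 3 higher in swi4 and 4 higher in ard1. Of all genes, 5.16% were called higher in swi4 and 6.26% in ard1. At an unadjusted p under 0.05, 4 of 7 differed in dot1, beside 1226 of all 5449 genes.

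SNZ3 read 8.60 and 8.57 on the wt arrays, 9.23 and 8.83 on those of dot1, 9.73 and 9.74 on those of swi4, and 8.63 and 8.78 on those of ard1. It rose 2.22-fold in swi4 (1.15 ± 0.14, limma adjusted p = 0.00670). SNO3 read 7.53 and 7.48 on the wt arrays, 8.59 and 8.07 on those of dot1, 8.61 and 8.55 on those of swi4, and 7.53 and 7.74 on those of ard1, and it rose 2.11-fold in swi4 (1.08 ± 0.17, limma adjusted p = 0.0137). Both calls were lost without swi4 replicate 1 or swi4 replicate 2, and that of SNO3 also without wt replicate 2. In swi4 these 2 probe sets and that of the THI5 family were thus higher together. In dot1, SNO3 stood 0.83 ± 0.17 and SNZ3 0.44 ± 0.14 above wt without a call (limma adjusted p = 0.0583 and 0.132), and SNO3 was called after median centring (limma adjusted p = 0.0438, in a range of 0.0227 to 0.175 over the alternatives). The THI5 family arrays of dot1 overlapped those of wt, at −0.21 ± 0.19, and stood at 0.04 without dot1 replicate 2. That 0.04 sets dot1 replicate 1 alone against the mean of the wt arrays. By replicate number the dot1 arrays lay below wt, at 8.32 against 8.43 and 7.83 against 8.13.

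The other pair of synthase genes followed a different order. In linear intensity SNO1 was dim, at 52 and 51 on the wt arrays, where the deleted ARD1 read 47 and 37 in its own mutant. SNO1 read 5.69 and 5.69 on the wt arrays, 6.30 and 6.0 on those of dot1, 5.58 and 5.42 on those of swi4, and 7.01 and 6.60 on those of ard1. It rose 2.17-fold in ard1 (1.12 ± 0.17, limma adjusted p = 0.00766), also with each array left out in turn, and stood 0.19 ± 0.17 below wt in swi4 without a call. SNZ1 rose 1.81-fold in ard1 (0.86 ± 0.19, limma adjusted p = 0.0271), a call lost without ard1 replicate 1, ard1 replicate 2 or wt replicate 2. The direct difference between ard1 and swi4 was 1.30 ± 0.17 for SNO1 and −1.03 ± 0.14 for SNZ3 (ard1 minus swi4, limma adjusted p = 0.00573 and 0.00635). PDX3 and TPN1, for an oxidase that makes pyridoxal phosphate and a pyridoxine transporter, were the other called genes. Both were added after their values were seen. PDX3 rose by 0.57 ± 0.09 in ard1 and by 0.38 ± 0.09 in swi4 (limma adjusted p = 0.00864 and 0.0406), and TPN1 by 0.48 ± 0.13 in ard1 (limma adjusted p = 0.0427). The calls in ard1 were lost without either ard1 array, that of TPN1 also without wt replicate 2 and after median centring, and that of PDX3 in swi4 without any 1 of the 4 arrays.

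**Figure D3:**
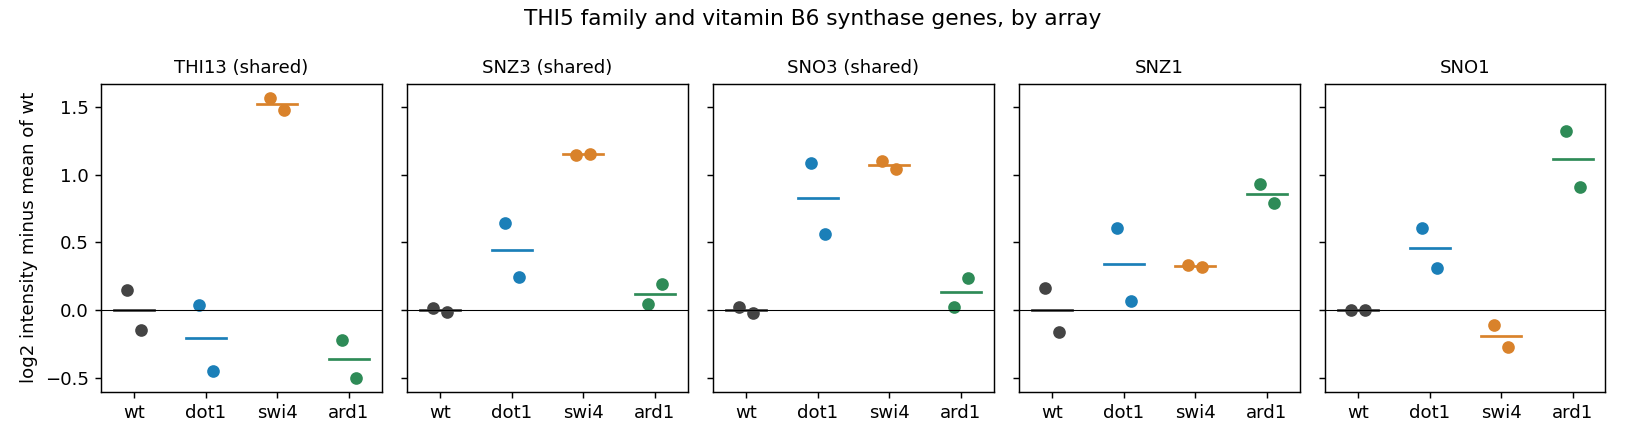
Log2 intensity relative to the mean of the 2 wt arrays for the THI5 family probe set (labelled THI13) and 4 vitamin B6 synthase genes on each array. Points are arrays, bars are group means. The first 3 panels are highest in swi4, and the last 2, SNZ1 and SNO1, are highest in ard1.

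Among 10 genes for enzymes that use thiamine diphosphate, limma called 1 higher in dot1 and 2 higher in swi4, as were 1.12% and 5.16% of all genes, and 2 in ard1, 1 higher and 1 lower, where 18.5% of all genes were called. ARO10, a decarboxylase gene of amino acid breakdown, read 9.02 and 9.01 on the wt arrays, 10.09 and 10.03 on those of dot1, 9.64 and 9.60 on those of swi4, and 9.72 and 9.62 on those of ard1. It rose in all 3 mutants, by 1.04, 0.61 and 0.65 in that order (SE 0.08, limma adjusted p = 0.00585, 0.00941 and 0.00507), and all mutant arrays lay above both wt arrays. The dot1 call was lost without dot1 replicate 2 and the swi4 call without swi4 replicate 1 or swi4 replicate 2. TKL2, the minor transketolase gene, rose 2.21-fold in swi4 (1.14 ± 0.22, limma adjusted p = 0.0238), and the call was lost without swi4 replicate 1, swi4 replicate 2 or wt replicate 2. KGD1, for a subunit of alpha-ketoglutarate dehydrogenase, fell in ard1 by 0.35 ± 0.09 (limma adjusted p = 0.0406), which was lost after median centring, after quantile normalization and without ard1 replicate 1, ard1 replicate 2 or wt replicate 1. The major pyruvate decarboxylase gene PDC1 read 14.69 to 14.74 on all 8 arrays, and its isozyme gene PDC5 was lower than wt by 0.71 ± 0.21 in ard1 without a call (limma adjusted p = 0.0645).

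Over the 3 linked lists together, 28 of 30 genes were measured. Limma called 1 in dot1, 6 in swi4 and 10 in ard1, beside 2.46%, 12.2% and 18.5% of all genes. Those in ard1 split into 5 higher and 5 lower, beside 6.26% and 12.2% of all genes. Leaving out single arrays gave 0 to 1, 0 to 5 and 4 to 9. That split was 6 and 3 after median centring and 5 and 3 after quantile normalization. The median difference of these 28 from wt stood at −0.02 for dot1, 0.01 for swi4 and −0.01 for ard1.

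The patterns of the 3 thiamine genes with the widest range of group means were compared with all other genes by Pearson's r over the log2 values of the 8 arrays, which fall into 4 groups of 2, so that r mostly follows 4 group means. For the THI5 family probe set, whose group means spanned 1.88, the 5 most similar genes outside the lists were DIT1, GND2, YGP1, GAS3 and HOP1, with r from 0.987 down to 0.971. GND2, the minor 6-phosphogluconate dehydrogenase gene, stood at group means of 8.47, 8.39, 9.79 and 8.24 in wt, dot1, swi4 and ard1. Pearson's r does not weigh the size of a change. In the same order of groups YGP1 stood at 14.09, 14.13, 14.43 and 14.08, and GAS3 at 12.95, 12.93, 13.10 and 12.92, far narrower ranges. Within the lists SNZ3 came first, with r of 0.882, and TKL2 next, with 0.850.

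For THI7, whose group means spanned 1.42, the 5 most similar genes were FAS2, TGL5, SFB3, TDA4 and EHT1, with r from 0.987 to 0.972. FAS2, which encodes a subunit of fatty acid synthase, had group means of 13.55, 13.26, 13.21 and 12.89 in the same order of groups, and EHT1, an ethyl ester synthase gene, 11.97, 11.65, 11.38 and 10.85. Within the lists NRT1 came first, with r of 0.900. For THI2, dim as given above, the group means spanned 0.80. Its r with PHO3 was 0.978 and exceeded that with every gene outside the lists. Of these YCL021W-A, URH1, PHM8, MSA1 and EUG1 were closest, with r from 0.976 to 0.969. An r of 0.95 or more was reached by 25 genes for THI2, 33 for THI7 and 12 for the THI5 family probe set. Among the members THI2 was closest to THI20, with r of 0.935, whereas THI7 and the THI5 family probe set had r of 0.108 with each other.

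**Figure D4:**
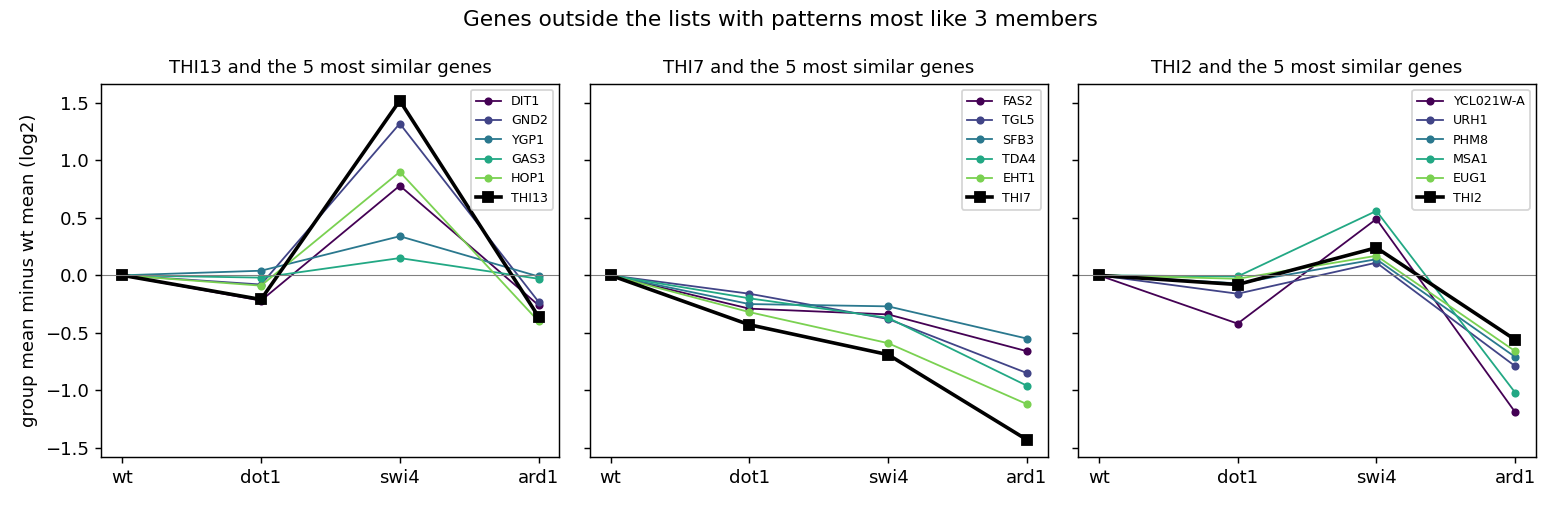
Group means relative to wt on the log2 scale for the THI5 family probe set (labelled THI13), THI7 and THI2, in black squares, each with the 5 genes outside the lists that had the highest Pearson r over 8 arrays. The THI13 panel peaks in swi4, the THI7 panel declines from wt to ard1, and the THI2 panel is highest in swi4 and lowest in ard1.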

How the data were processed

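The authors summarised each probe set of each array with RMA, per the submitters' processing notes, and deposited linear intensity. The RMA version is not given in the sources used here. RNA was extracted with hot acid phenol and 1 ug was labelled per array, per the labels' protocols. The range was 15.2 to 35540, and fits used log2 of these values. Of 5814 probe sets, 5498 had 1 symbol, 98 were controls, 218 were unnamed and 0 had several symbols. Symbols were updated through the R64 gene table (12 changed). The brightest probe set stood for the 47 genes with several.

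Differences came from limma 3.58.1 in R 4.3.3 (lmFit, eBayes), 1 fit of 4 group means over 8 arrays and 5449 genes, with 4 residual and 2.73 prior degrees of freedom. The fit was also run on simulated data whose noise was independent between arrays. The replicate differences of these arrays correlated between groups, so that run does not cover them. Calls were two-sided. The smallest exact permutation p for 2 against 2 arrays is 0.333. The number of arrays limits the precision, and signal over background cannot be read from RMA values. No promoter or protein sequences were used here.

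The members and lists were chosen with earlier results of these data known. Named were all members, at most 4 called genes per linked list by largest change, PDC2, THI6 and THI80 for their roles, the 5 most similar genes of 3 members, and the deleted genes. PDX3, TPN1, PDC1, PDC5, THI72, THI74, TPC1 and PET18 were added after their values were seen. The alternatives were median centring, quantile normalization, the replicate number as a block, the 2 groups alone, a filter on the dimmest 25% of genes, a trended and robust prior, every probe set, and leaving out each array. For linked genes only median centring, quantile normalization, the block and leaving out each array were run. Their ranges over the alternatives are therefore narrower in scope than those of the members.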

Additional observations from a re-analysis of the deposited data

How the results depend on the processing

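Of 14 called differences of thiamine genes over the 6 comparisons, 3 were called with each of the 4 arrays left out in turn: THI7 in ard1 against wt and against dot1, and the THI5 family in ard1 against swi4. Of 17 called differences of linked genes against wt 4 were, those of NRT1, PHO3, SNO1 and ARO10 in ard1. None of the called differences changed sign under any alternative run. The swi4 difference from wt lay between 1.37 and 1.67 over the alternatives for the THI5 family probe set. For SNZ3 it lay between 1.14 and 1.25. Both calls were nevertheless lost when either swi4 array was left out. The share of all genes called with an array left out is not given. Leave-out counts here and above therefore cannot separate fragility of these genes from fewer calls over all genes. Leaving out 1 array gave 0 to 0 thiamine genes called in dot1 against wt, 0 to 2 in swi4 against wt, 1 to 3 in ard1 against wt, 0 to 1 in swi4 against dot1, 1 to 2 in ard1 against dot1 and 1 to 3 in ard1 against swi4. The linked genes called were then 0 to 1 in dot1, 0 to 5 in swi4 and 4 to 9 in ard1. With only the 2 groups compared in the fit, 1 thiamine gene was called in ard1 against wt and 0 in swi4 against dot1. Fewer arrays set the spread in that fit, and the cause of the lower counts was not tested. The share of all genes called in that fit is not given either. In swi4 against wt quantile normalization gave 2 higher and 1 lower. Median centring called 2 linked genes in dot1, and the cause was not tested. With the replicate number as a block, 5 linked genes were called in dot1, and the thiamine genes called were 0, 2 and 4 against wt in dot1, swi4 and ard1. The block also called these differences, which were not called on the same values and arrays without it: THI21 lower in ard1 than in wt and dot1, PDC5 lower in dot1 and ard1 (limma adjusted p = 0.0227 and 0.00369), THI72 lower in swi4 and ard1, THI73 lower and TPN1 higher in swi4, SNO1, SNO3 and KGD1 higher in dot1, and ILV2 higher in ard1. The labels do not say that a number marks a shared culture or day. Differences between replicates 2 and 1 correlated over genes by 0.35 to 0.75 between groups, and the block raised the genes called from 134 to 793, from 663 to 1397 and from 1006 to 1517. Alternatives for single linked genes were chosen after seeing the data. THI2 lies among the dimmest 25% of genes, so that filter gave it no value. SNO1, with a lower mean over the arrays than THI2, lies there too.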
